A study of Mus musculus with 6 samples.

Results

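The Fc gamma receptors of the mouse, Fcgr1, Fcgr2b, Fcgr3 and Fcgr4, and Fcer1g, the signalling chain that most of them depend on, were followed in microglia after the removal of the microRNA miR-137. The 5 genes were chosen by name, as the rows of the deposited count table with these symbols, out of 17459 genes in that table. All 5 were found, and all 5 passed the filter on low counts that left 13490 genes for testing.

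Microglia came from the brains of male C57BL/6J mice aged 8 weeks, and their RNA was sequenced in 3 libraries of Mir137 conditional knockout mice (cKO) and 3 libraries of control mice (cWT). The cKO mice carried Mir137 loxP/loxP and Tmem119-CreERT2, a Cre recombinase that the promoter of the microglial gene Tmem119 drives and that tamoxifen activates. The cWT mice were Mir137 +/+ with the same Tmem119-CreERT2, so both genotypes carried the Cre and both had tamoxifen on 7 consecutive days at 7 to 8 weeks of age. Microglia were isolated from 4 mice, and the labels do not say how these mice fall into the 3 replicates of a genotype, so each p-value here reflects only how these samples vary, and that variation could be technical. The loss of Mir137 was not checked from these counts.

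Fc gamma receptors bind the constant part of IgG and so let a macrophage recognise particles, cells or complexes that antibodies have coated. The activating receptors FcγRI (Fcgr1), FcγRIII (Fcgr3) and FcγRIV (Fcgr4) have short tails of their own and signal through the gamma chain encoded by Fcer1g, whose ITAM motif is phosphorylated by Src family kinases and then binds the kinase Syk. The inhibitory receptor FcγRIIb (Fcgr2b) carries an ITIM motif in its own tail, recruits the phosphatase SHIP-1 (Inpp5d) and dampens the activating signal. In microglia these receptors are known for the uptake of antibody-bound material.

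The microRNA removed in cKO and the longest stretch of sequence shared by a pair of the receptors, which bears on their counting, are shown first. In the mature miR-137-3p (RefSeq, GRCm38.p6, chr3:118433901-118433923, plus strand) the capitals mark the seed, bases 2 to 8, which pairs with the site AGCAATA in a target RNA.

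mmu-miR-137-3p: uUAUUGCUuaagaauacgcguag

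None of the longest annotated 3' UTRs of the 5 genes held AGCAATA, a site found in 1627 of 15804 genes with an annotated 3' UTR (10.3%). A lack of these letters in that window says nothing of other kinds of site. Fcgr1 lies on chromosome 3 as Mir137 does (GRCm38, chr3:96282909-96293969, minus strand). The other 4 genes lie close together on chromosome 1: Fcgr2b (chr1:170958617-170976547, minus strand), Fcgr4 (chr1:171018920-171029761, plus strand), Fcgr3 (chr1:171051174-171064935, minus strand) and Fcer1g (chr1:171229572-171234365, minus strand). An antisense gene is annotated across the start of Fcgr2b, and no source used here says whether the counting used strand, so reads of that pair cannot be told apart.

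Fcgr2b and Fcgr3 encode nearly the same outer domains. The longest run of coding sequence that the transcripts Fcgr2b-202 and Fcgr3-201 share without a mismatch has 129 bases. Identical sequence is not limited to that run. Of the 1298 stretches of 50 bases in Fcgr3-201, 166 were also in Fcgr2b-202. The longer transcript Fcgr2b-201 was not compared. The run of 129 bases spans an exon junction on the minus strand in both genes. In Fcgr2b it comes from chr1:170967980-170968081 and chr1:170966674-170966700, and in Fcgr3 from chr1:171057691-171057792 and chr1:171054167-171054193 (GRCm38). A read that falls wholly inside it matches both genes.

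Fcgr2b and Fcgr3, shared coding run: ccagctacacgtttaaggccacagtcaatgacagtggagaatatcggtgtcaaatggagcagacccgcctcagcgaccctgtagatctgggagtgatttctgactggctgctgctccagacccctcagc

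The longest run shared by any other pair of the 5 transcripts was 14 bases. The 120 bases before a RefSeq start of each gene are given next. They are shown because all 5 genes were higher in cKO in the first comparison below, though not in every fit. The sequences come from RefSeq (GRCm38.p6), 5′ to 3′ on the strand of the gene, and the starts taken for Fcgr3 and Fcgr2b lie inside the spans given above. Capitals mark GAGGAA or its reverse complement TTCCTC, the core letters bound by PU.1, the transcription factor encoded by Spi1 that macrophages depend on.

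Fcgr1, chr3:96293970-96294089, minus strand: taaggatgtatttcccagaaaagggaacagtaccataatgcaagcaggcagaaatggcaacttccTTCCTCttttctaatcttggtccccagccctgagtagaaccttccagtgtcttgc
Fcgr3, chr1:171059404-171059523, minus strand: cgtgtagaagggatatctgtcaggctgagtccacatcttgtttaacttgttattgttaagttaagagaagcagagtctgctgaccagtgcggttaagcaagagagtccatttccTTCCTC
Fcgr4, chr1:171018806-171018925, plus strand: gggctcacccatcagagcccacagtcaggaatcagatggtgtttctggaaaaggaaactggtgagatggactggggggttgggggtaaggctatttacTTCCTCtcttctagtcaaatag
Fcgr2b, chr1:170976072-170976191, minus strand: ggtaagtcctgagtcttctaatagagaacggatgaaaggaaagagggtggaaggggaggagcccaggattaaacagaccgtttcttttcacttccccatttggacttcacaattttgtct
Fcer1g, chr1:171234350-171234469, minus strand: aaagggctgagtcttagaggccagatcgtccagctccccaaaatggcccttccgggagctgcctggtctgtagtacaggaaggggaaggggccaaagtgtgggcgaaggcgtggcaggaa

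Over the window of 300 bases, from 250 before to 50 after the start, 3 of the 5 genes held the core letters on either strand, namely the activating receptors Fcgr1, Fcgr3 and Fcgr4. Of 32851 annotated start windows of that length, 9289 held them (28.3%). AGCAATA, or its reverse complement TATTGCT, was in none of the 5 windows and in 709 of all windows (2.16%). A match is a run of letters and not a measured binding site, and no match says only that these letters are not in this window. Since none of the 5 windows held AGCAATA, the motifs did not overlap in them.

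The libraries held 12068698, 12562367 and 15212806 estimated counts in cKO, against 16503817, 16734743 and 17482042 in cWT. The levels below are CPM, counts scaled to a common library total with TMM factors. Each gene was tested within a fit of all 13490 genes by edgeR's quasi-likelihood test, and a gene was called at a Benjamini-Hochberg adjusted p under 0.05. The fit called 4803 genes higher in cKO (35.6%) and 4926 lower (36.5%), so a call alone is common in these data.

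All 5 genes were called higher in cKO, by 1.68-fold to 3.02-fold, and in each of them every cKO library lay above every cWT library. Among all genes tested, 4950 had every cKO library above every cWT library (36.7%). The median log2 fold change of the 5 genes was 1.34, beside -0.02 over all genes tested. In bulk RNA, fewer cells of a type and less RNA per cell cannot be told apart, and the same holds for more.

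Fcgr1, the high-affinity receptor for IgG, had 671, 599 and 699 CPM in the cKO libraries, against 409, 364 and 402 CPM in the cWT libraries. The lowest cKO library was far above the highest cWT library, and the replicates of each genotype were close. The means were 656 ± 51.9 CPM in cKO and 392 ± 23.9 CPM in cWT (SD, n = 3 each), and the log2 fold change was 0.74 (SE 0.10; edgeR adjusted p = 2.64e-06), the smallest of the 5. With libraries scaled by their total counts only, it was 0.35 (edgeR adjusted p = 0.00274).

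Fcgr3, the low-affinity activating receptor, had 2679, 2484 and 2413 CPM in cKO, against 1227, 1012 and 1082 CPM in cWT. The 3 cKO libraries were all above the highest cWT library by a wide margin. The log2 fold change was 1.19 (SE 0.11; edgeR adjusted p = 2.11e-08), a 2.28-fold difference between means of 2525 ± 137 CPM in cKO and 1107 ± 110 CPM in cWT (SD, n = 3 each).

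Fcgr4, the activating receptor that binds IgG2a and IgG2b, had 91.4, 95.5 and 68.8 CPM in cKO, against 32.6, 25.5 and 26.5 CPM in cWT. Replicate 3 was the lowest of the cKO libraries and was still well above the highest cWT library. Its fold change was the largest of the 5, 3.02-fold or 1.59 on the log2 scale (SE 0.13; edgeR adjusted p = 4.04e-09), with means of 85.2 ± 14.4 CPM in cKO and 28.2 ± 3.82 CPM in cWT (SD, n = 3 each).

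Fcgr2b, the inhibitory receptor, had 1013, 911 and 966 CPM in cKO, against 410, 347 and 341 CPM in cWT. The genotypes were clearly apart, with the replicates of each within a narrow band. The means were 963 ± 50.7 CPM in cKO and 366 ± 38.0 CPM in cWT (SD, n = 3 each), a 2.63-fold difference or 1.40 on the log2 scale (SE 0.11; edgeR adjusted p = 1.47e-09).

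Fcer1g, the common gamma chain, had 710, 592 and 905 CPM in cKO, against 293, 288 and 292 CPM in cWT. The cWT libraries were nearly equal, while the cKO libraries spread widely, with replicate 3 the highest. The means were 736 ± 158 CPM in cKO and 291 ± 2.65 CPM in cWT (SD, n = 3 each), and the log2 fold change was 1.34 (SE 0.13; edgeR adjusted p = 2.92e-08). The cKO library with the highest Fcer1g was the one with the lowest Fcgr4 and the lowest Fcgr3.

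**Figure D1:**
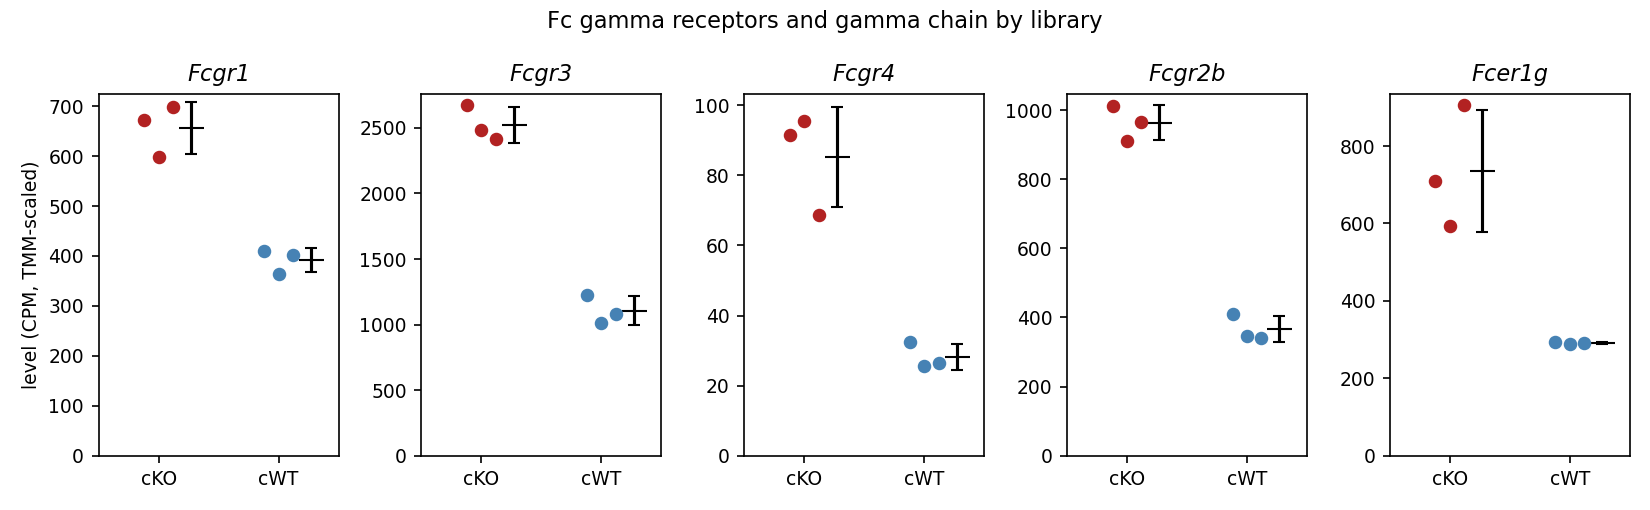
Level of each gene in every library, in TMM-scaled CPM on linear axes that start at 0 and differ between panels. Points are the 3 cKO and the 3 cWT libraries, and the bar beside each group is the mean ± SD. In all 5 panels the cKO points lie above the cWT points, and Fcer1g has the widest cKO spread (592 to 905 CPM).

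The authors' deposited table, their own comparison of the genotypes, gives log2 fold changes of 0.75 for Fcgr1, 1.20 for Fcgr3, 1.60 for Fcgr4, 1.40 for Fcgr2b and 1.34 for Fcer1g. The standard errors in the authors' deposited table run between 0.09 for Fcgr1 and 0.15 for Fcgr4.

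Per kilobase of transcript the genes can be set beside each other. Fcgr3 had the highest level, 1875 ± 102 CPM per kilobase in cKO and 822 ± 81.5 in cWT (SD, n = 3 each). Fcer1g followed with 1092 ± 234 CPM per kilobase in cKO and 432 ± 3.95 in cWT. Fcgr4 was the lowest, with 67.9 ± 11.5 CPM per kilobase in cKO and 22.4 ± 3.04 in cWT.

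Fcgr1 and Fcgr2b lay between Fcer1g and Fcgr4. For Fcgr2b the length taken was the 3544 bases of Fcgr2b-201, its longest coding transcript. Fcgr2b-204, with 1578 bases, has the same annotation rank, and the tie was settled by length. At 3544 bases Fcgr2b had 272 ± 14.3 CPM per kilobase in cKO and 103 ± 10.7 in cWT. Fcgr1 had 254 ± 20.0 in cKO and 151 ± 9.23 in cWT. Within each library Fcgr2b was above Fcgr1 in all 3 cKO libraries, though the ranges overlapped, while Fcgr1 was above Fcgr2b in all 3 cWT libraries. At the 1462 bases of the shorter coding transcript Fcgr2b-202 the level of Fcgr2b would be 659 ± 34.7 CPM per kilobase in cKO and 250 ± 26.0 in cWT, above Fcgr1 in both genotypes, so the order of these genes depends on which transcript is present.

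The balance of inhibitory to activating receptor was read within each library. The ratio of Fcgr2b to Fcgr3, in CPM per kilobase, was 0.144, 0.139 and 0.152 in cKO, against 0.127, 0.130 and 0.120 in cWT. The 3 cKO ratios were all higher, by 0.21 on the log2 scale, over a pooled SD of 0.06 between replicates. Against the sum of the 3 activating receptors the Fcgr2b ratio was 0.124 ± 0.00467 in cKO and 0.104 ± 0.00485 in cWT (SD, n = 3 each), higher by 0.26 on the log2 scale. These differences between ratios are descriptions and were not tested. With the length and GC offsets described below, the log2 fold change of Fcgr2b was 1.56 or 0.33, depending on the transcript taken. Those of Fcgr3, Fcgr4 and Fcgr1 were 0.06, 0.36 and 0.65, so the ratios as printed hold only without the offsets.

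Among the activating receptors, the ratio of Fcgr1 to Fcgr3 per kilobase was 0.130, 0.125 and 0.151 in cKO, against 0.173, 0.187 and 0.193 in cWT. The cKO ratios were all below the cWT ratios, with a log2 difference of -0.45 (pooled SD 0.11). That order turns with the length and GC offsets described below, where the log2 fold change was 0.65 for Fcgr1 and 0.06 for Fcgr3. The ratio of Fcgr4 to Fcgr3 was 0.0366, 0.0412 and 0.0306 in cKO, against 0.0285, 0.0270 and 0.0263 in cWT, higher by 0.40 on the log2 scale (pooled SD 0.16). The groups did not overlap for either ratio.

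The gamma chain was set against the receptors that need it in the same way. The ratio of Fcer1g to the sum of Fcgr1, Fcgr3 and Fcgr4, per kilobase, was 0.454, 0.409 and 0.635 in cKO, against 0.397, 0.468 and 0.442 in cWT. The groups overlapped, and the log2 difference of 0.17 was smaller than the pooled SD of 0.25. It was -0.01 without cKO replicate 3. With the offsets, the log2 fold change of Fcer1g was -0.34, below those of Fcgr1 (0.65), Fcgr4 (0.36) and Fcgr3 (0.06), so the ratio as printed holds only without them.

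Fold changes in these libraries went with transcript length. Over the 12983 tested genes with an annotated length (96.2%), short transcripts tended to be higher in cKO and long ones lower, with a Spearman correlation across genes of -0.72, given as a description because genes share the libraries and are not independent. Fcer1g, Fcgr4 and Fcgr3 have transcripts of 674, 1256 and 1347 bases, and Fcgr1 and Fcgr2b longer ones. The genes were therefore read against others of like length, in 10 classes of equal size by length, and refitted in edgeR with offsets per library that follow length and GC content.

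Fcer1g, with 674 bases the shortest, fell in the shortest class, in which genes had a median of 1.57 on the log2 scale and 86.2% were called higher. Its own 1.34 was above only 35.6% of that class. Fcgr3 (1347 bases) and Fcgr4 (1256 bases) fell in the second class, with a median of 0.98 and 75.4% called higher, and lay above 64.4% and 86.5% of it. Fcgr1 (2589 bases) was in the fifth class, with a median of 0.05 and 30.6% called higher, and lay above 85.2% of it.

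Fcgr2b is annotated with 4 coding transcripts of 1084 to 3544 bases. At 3544 bases it fell in the seventh class, with a median of -0.40 and 14.2% called higher, and lay above 97.6% of that class. At the 1462 bases of Fcgr2b-202 it would fall in the second class and lie above 77.8% of it. The deposited counts are per gene and do not show which transcript was read.

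**Figure D2:**
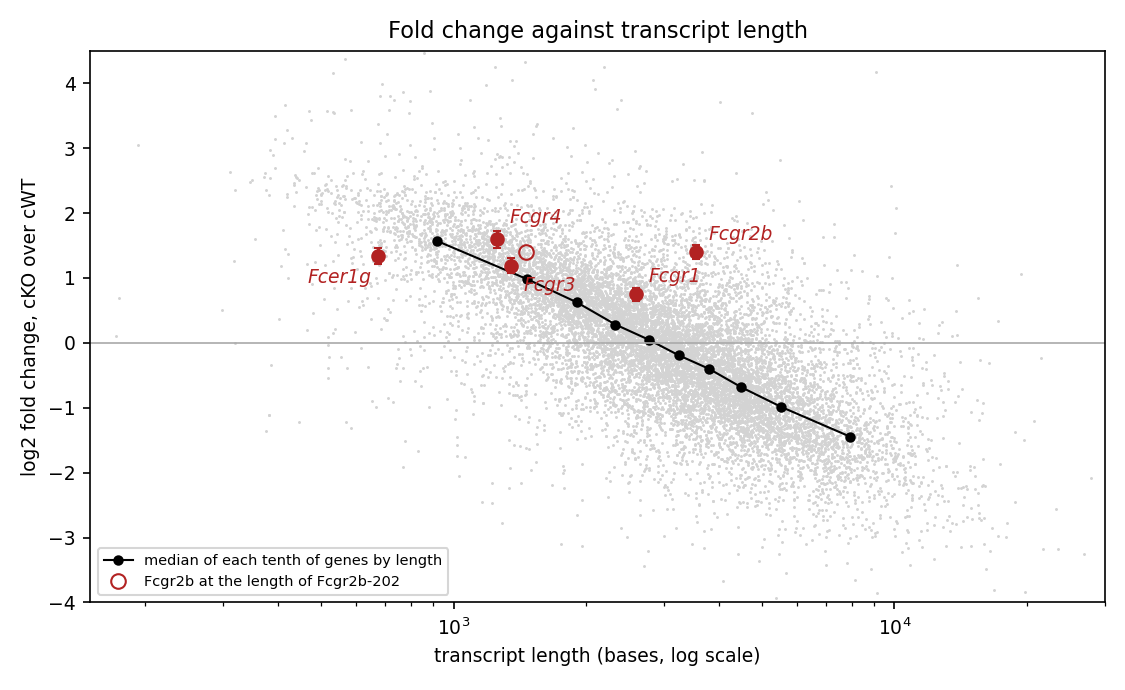
Log2 fold change, cKO over cWT, against transcript length in bases on a log axis. Grey points are tested genes (a few lie beyond the axes), black points the median of each of 10 length classes at its median length, and red points the Fc receptor genes ± SE; the open circle is Fcgr2b at the length of Fcgr2b-202. Fcgr1 and Fcgr2b lie well above the median line at their lengths, Fcgr3 is close to it and Fcer1g lies below the median of its class.

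Of the 12983 genes refitted with offsets, edgeR called 3823 higher in cKO (29.4%) and 3555 lower (27.4%), and 3 of the 5 genes stayed called higher. Fcgr1 kept a log2 difference of 0.65 (SE 0.08; edgeR adjusted p = 2.8e-07). Fcgr4 had 0.36 (SE 0.10; edgeR adjusted p = 0.00502). Fcgr3, at 0.06 (SE 0.08; edgeR adjusted p = 0.549), no longer passed.

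Fcer1g turned to -0.34 (SE 0.15; edgeR adjusted p = 0.0782), which did not pass either. Fcgr2b had 1.56 (SE 0.08; edgeR adjusted p = 9.49e-14) with the length of 3544 bases and 0.33 (SE 0.08; edgeR adjusted p = 0.000846) with that of Fcgr2b-202, an alternative added after the data were seen. Fcgr2b was called higher at both of these lengths, but the size of its difference varied widely. Its other coding lengths, down to 1084 bases, were not fitted. At 1084 bases it would fall in the shortest class, whose median of 1.57 is above its own 1.40 without offsets.

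**Figure D3:**
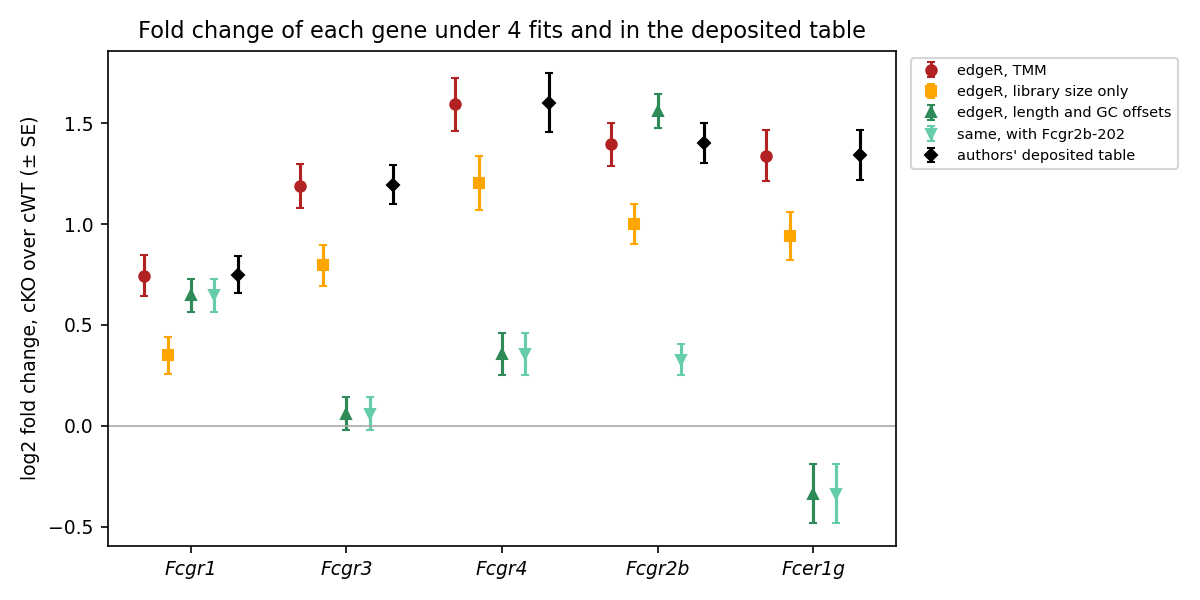
Log2 fold change ± SE, cKO over cWT, of the 5 genes in 4 edgeR fits and in the authors' deposited table. Values of all 5 are above 0 with TMM scaling (0.74 to 1.59) and with total counts only (0.35 to 1.20). With length and GC offsets Fcgr3 is at 0.06 and Fcer1g at -0.34, and Fcgr2b is at 1.56 or 0.33 depending on the transcript taken.

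Reads of Fcgr2b and Fcgr3 were divided between them in the deposited counts of cKO. Fcgr2b had estimated counts of 10401.07, 10289.51 and 12724.32 in cKO, against 7700, 6783 and 6741 in cWT. Fcgr3 had 27514.93, 28050.49 and 31787.68 in cKO, against 23070, 19772 and 21393 in cWT. Both genes were fractional in all 3 cKO libraries and whole in all 3 cWT libraries, while their sum was whole in all 6 (within 0.001).

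Only 10 of the 17459 genes were fractional in all cKO and whole in all cWT libraries, and 15 showed the reverse. What made the estimates fractional in cKO and whole in cWT was not tested. Taken as a single feature, Fcgr2b and Fcgr3 summed differed by 1.24 on the log2 scale (SE 0.11; edgeR adjusted p = 1.4e-08) without the offsets. That value does not depend on how such reads were divided between them, while the ratio of Fcgr2b to Fcgr3 does. No value of the sum with the offsets is given here. Fcgr3, the gene with more counts in every library, had 0.06 with the offsets.

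Genes that act with the receptors were taken from lists of textbook members. Of 137 tested genes on 8 lists, 42 were called higher and 61 lower, and with the offsets 31 and 53. The share called higher over all genes was 35.6% without offsets and 29.4% with them, and the share lower 36.5% and 27.4%.

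Other Fc receptors moved both ways. Of 7 tested, 3 were called higher and 1 lower, with a median log2 fold change of -0.18, and with the offsets 0 higher and 3 lower (median -0.29). Fcrls, an Fc receptor-like gene of microglia, had 2235, 1809 and 2749 CPM in cKO, against 3061, 2781 and 2991 CPM in cWT, below every cWT library (log2 fold change -0.38, edgeR adjusted p = 0.0164). Without cKO replicate 2 it was -0.22 and missed the threshold (edgeR adjusted p = 0.127), while with the offsets it was -0.74 (edgeR adjusted p = 3.22e-05).

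Fcgrt, the neonatal Fc receptor that recycles IgG, had 251, 242 and 323 CPM in cKO, against 186, 171 and 166 CPM in cWT. It was called higher (log2 fold change 0.64, edgeR adjusted p = 4.43e-05), and its value with the offsets was 0.11 (edgeR adjusted p = 0.246). Fcer1a and Ms4a2, the alpha and beta chains that join Fcer1g in the IgE receptor of mast cells, had at most 1.97 CPM in any library. Both were called higher, but their log2 values with the offsets, 0.44 and 0.01, were not. Without the offsets, the call of Fcer1a was lost without cWT replicate 3 (1.41, edgeR adjusted p = 0.0519) and that of Ms4a2 without cKO replicate 3 (1.25, edgeR adjusted p = 0.0686).

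ITAM adaptors and the receptors that pair with them included 11 genes called higher and 0 lower among 16 tested, with a median of 0.69. With the offsets 7 were higher and 6 lower, with a median of 0.05. Tyrobp encodes DAP12, the other main ITAM adaptor of microglia, and had 2996, 2614 and 2813 CPM in cKO, against 796, 663 and 629 CPM in cWT. It was 2.01 higher on the log2 scale (SE 0.12; edgeR adjusted p = 6.45e-11) and 0.36 with the offsets (edgeR adjusted p = 0.000613).

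Trem2, the lipid receptor that signals through Tyrobp, had 3151, 2656 and 3789 CPM in cKO, against 1183, 1061 and 1125 CPM in cWT, a log2 fold change of 1.51 (0.42 with the offsets, edgeR adjusted p = 0.00041). Its highest library was cKO replicate 3, as for Fcer1g. Clec4d, a C-type lectin that signals through Fcer1g, had 50.5, 59.3 and 42.4 CPM in cKO, against 7.93, 7.73 and 6.93 CPM in cWT. Its log2 fold change was 2.75 without the offsets and 1.36 with them (edgeR adjusted p = 1.25e-09). Hcst, which encodes DAP10, was 2.54 higher on the log2 scale and 0.86 with the offsets (edgeR adjusted p = 4.81e-05).

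Inhibitory receptors with ITIM motifs, the class of Fcgr2b, moved both ways. Of 17 tested, 9 were called higher and 6 lower (median 0.41), and with the offsets 4 and 8 (median -0.14). Cd300lf, a lipid-binding inhibitory receptor, was the most raised of those named, with 52.8, 69.3 and 61.6 CPM in cKO, against 12.3, 14.0 and 12.2 CPM in cWT. Its log2 fold change was 2.25, and 1.63 with the offsets (edgeR adjusted p = 6.98e-12).

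Sirpa, the receptor for the signal CD47 that restrains uptake, had 1020, 989 and 1226 CPM in cKO, against 2090, 2297 and 2425 CPM in cWT. It fell by 1.07 on the log2 scale (edgeR adjusted p = 1.33e-07), and its value with the offsets was -0.50 (edgeR adjusted p = 1.87e-05). Clec4a2, a lectin receptor with an ITIM, rose by 1.34 and by 0.77 with the offsets (edgeR adjusted p = 2.54e-09). Lair1, a collagen receptor, rose by 0.51, and Siglecg fell by 1.37 (edgeR adjusted p = 0.000144 and 0.000119). With the offsets Siglecg was at -1.42 and still called, while Lair1 was at 0.18 and was not (edgeR adjusted p = 0.0534).

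The tyrosine kinases that act next to the ITAM were more often lower than higher. Of 10 tested, 1 was called higher and 5 lower (median -0.23), and with the offsets 2 and 2 (median 0.03). Syk, which docks on the phosphorylated gamma chain, had 151, 158 and 162 CPM in cKO, against 250, 264 and 280 CPM in cWT. It fell by 0.75 on the log2 scale (edgeR adjusted p = 6.98e-07), but with the offsets it was higher by 0.29 (edgeR adjusted p = 0.00154).

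Lyn, which phosphorylates both ITAM and ITIM motifs, was lower by 0.24 (edgeR adjusted p = 0.0346), a call lost when any of cKO replicate 2 (-0.19) or the cWT replicates 1 (-0.25), 2 (-0.27) or 3 (-0.21) was left out. The call was also lost with DESeq2 size factors in edgeR (-0.22, adjusted p = 0.0519) and with the offsets (-0.13, edgeR adjusted p = 0.184). Src was lower by 0.72 and stood at 0.01 with the offsets.

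Adaptors and effectors further along the pathway were mostly lower. Of 28 tested, 2 were called higher and 22 lower (median -0.88), and with the offsets 2 and 12 (median -0.19). Prkcb, a protein kinase C isoform, had 38.3, 50.9 and 44.0 CPM in cKO, against 157, 155 and 186 CPM in cWT. It fell by 1.90 on the log2 scale (SE 0.12; edgeR adjusted p = 9.41e-11) and had -1.88 with the offsets.

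Sos1, a Ras exchange factor, fell by 1.77 on the log2 scale (-0.58 with the offsets), and Pik3ap1, an adaptor of PI3 kinase, fell by 1.65 (-0.98 with the offsets). Prkcd fell by 0.44 and had -0.43 with the offsets. Each of these 3 was called in both fits. Vav1, the Rac exchange factor, had 312, 335 and 404 CPM in cKO, against 320, 350 and 378 CPM in cWT, and the groups overlapped.

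Among negative regulators of the pathway, 2 of 13 tested were called higher and 7 lower (median -0.45), and with the offsets 4 and 4 (median -0.10). Inpp5d, which encodes the SHIP-1 phosphatase that Fcgr2b recruits, had 426, 440 and 457 CPM in cKO, against 802, 876 and 946 CPM in cWT. It fell by 0.99 on the log2 scale (SE 0.10; edgeR adjusted p = 7.6e-08), while the offset value was -0.10 (edgeR adjusted p = 0.288). Its transcript is annotated with 4937 bases.

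Cbl, a ubiquitin ligase that targets activated receptors and kinases, had 9.93, 15.6 and 13.7 CPM in cKO, against 107, 106 and 111 CPM in cWT. The log2 fold change was -3.04 (SE 0.13; edgeR adjusted p = 3.4e-12), and -1.44 with the offsets (edgeR adjusted p = 1.98e-11). Its transcript, at 11372 bases, was the longest of the genes named here. Its relative Cblb fell by 1.42 (-0.32 with the offsets, edgeR adjusted p = 0.125), and Pag1, a membrane adaptor that holds Src family kinases in check, fell by 1.53 (-0.17 with the offsets, edgeR adjusted p = 0.0613).

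Genes of the phagocytic cup, which build the actin folds around a bound particle, included 7 called higher and 13 lower of 30 tested (median -0.09), and with the offsets 5 and 17 (median -0.26). Cfl1, the actin-severing cofilin, had 1509, 1330 and 1540 CPM in cKO, against 832, 676 and 701 CPM in cWT. It was higher by 0.99 on the log2 scale and by 0.74 with the offsets (edgeR adjusted p = 2.45e-07). Asap1 (-2.19), Wasf2 (-1.89) and Elmo1 (-1.63), which belong to Arf or Rac pathways, were lower. Marcks (-0.83), a membrane-bound actin regulator, was lower too. All 4 were also called lower with the offsets, at -1.51, -0.79, -0.76 and -0.47.

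Of 16 regulators known to bear on Fc receptor expression, 7 were called higher and 7 lower (median -0.13), and with the offsets 7 and 1 (median 0.11). Ifngr1, the ligand-binding chain of the interferon gamma receptor, had 1846, 1858 and 1659 CPM in cKO, against 889, 749 and 835 CPM in cWT. Interferon gamma is a textbook inducer of Fcgr1 and Fcgr4. Ifngr1 rose by 1.12 on the log2 scale (edgeR adjusted p = 3.43e-08) and by 0.64 with the offsets (edgeR adjusted p = 3.78e-07).

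The TGF-beta receptors, whose ligand keeps microglia in their resting state, were lower in cKO. Tgfbr2 had 303, 299 and 337 CPM in cKO, against 744, 784 and 848 CPM in cWT (log2 fold change -1.34, and -0.95 with the offsets, edgeR adjusted p = 1.64e-10). Tgfbr1 was lower by 0.64, but its value with the offsets was 0.12 (edgeR adjusted p = 0.223). Runx1, a myeloid transcription factor, was lower by 0.94, with an offset value of -0.01.

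**Figure D4:**
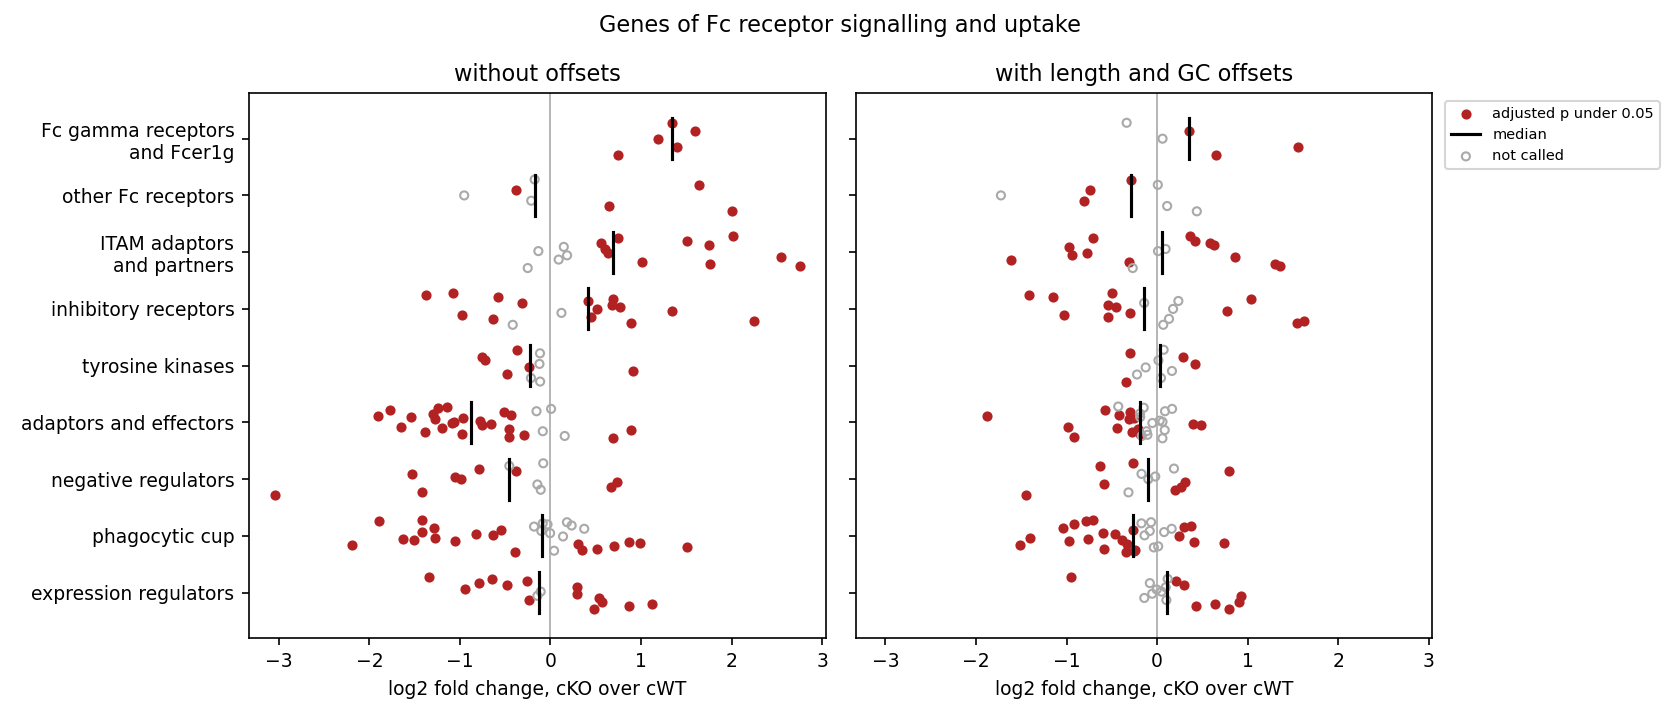
Log2 fold change, cKO over cWT, of each tested gene on the pathway lists, without offsets on the left and with length and GC offsets on the right. Each point is a gene, filled where the edgeR adjusted p is under 0.05, and the black line is the median of the list. The medians run between -0.88 and 1.34 without offsets and between -0.29 and 0.36 with them, and Fcgr2b is drawn at its length of 3544 bases.

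Other cells that carry Fc receptors were read from their markers. Markers of neutrophils, which carry Fcgr3, Fcgr4 and Fcer1g, summed to 16080, 12760 and 11560 CPM in cKO, against 5032, 4908 and 4504 CPM in cWT, and 6 of 9 tested were called higher and 2 lower. S100a8 alone had 5723, 4435 and 3769 CPM in cKO, against 1247, 1125 and 992 CPM in cWT. S100a9 had 7560, 6015 and 5017 CPM in cKO, against 1683, 1561 and 1361 CPM in cWT. S100a8 and S100a9 were the largest parts of the sum in every library. Mmp9 and Ltf were the 2 lower ones, and Ngp was not called. Values with the offsets are not given here for the markers. The part of neutrophil RNA in the levels of the Fc receptor genes was not tested.

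Monocyte markers summed to 1449, 1357 and 1140 CPM in cKO, against 1056, 1026 and 949 CPM in cWT, with 3 of 8 called higher and 4 lower. Ccr2, which defines classical monocytes, had 23.8, 20.6 and 10.9 CPM in cKO, against 57.6, 44.3 and 47.6 CPM in cWT. Ly6c2 had 192, 160 and 178 CPM in cKO, against 75.3, 64.0 and 65.7 CPM in cWT. Those markers went opposite ways, and their part in the Fc receptor levels was not tested.

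Border-associated macrophages were read from 8 markers, of which 5 were called higher and 1, Mrc1, lower. Their sum was 957, 1064 and 875 CPM in cKO, against 1048, 831 and 831 CPM in cWT, and overlapped between the genotypes. B cell markers, among them genes of cells rich in Fcgr2b, summed to 46.3, 43.9 and 53.1 CPM in cKO, against 34.9, 33.6 and 32.8 CPM in cWT. NK cell markers, of cells that carry Fcgr3, summed to 58.0, 56.9 and 52.2 CPM in cKO, against 39.7, 35.6 and 34.4 CPM in cWT. Ighm and Igkc were not analysed here. The part of either cell type in the Fc receptor levels was not tested.

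Mast cell markers summed to at most 6.45 CPM in any library, and dendritic cell markers to 16.9, 19.0 and 15.9 CPM in cKO, against 35.9, 31.3 and 32.9 CPM in cWT. The defining markers of microglia were abundant in all 6 libraries, with P2ry12 at 6069, 4649 and 4651 CPM in cKO, against 4978, 3867 and 3966 CPM in cWT. Of 10 microglial markers, 4 were called higher and 4 lower. Their sum was 37890, 34310 and 39000 CPM in cKO, against 35250, 35160 and 37320 CPM in cWT, and overlapped.

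On chromosome 1, the genes next to the receptors moved both ways. Of 26 other tested genes within 500 kb of the span from Fcgr2b to Fcer1g, 11 were called higher and 8 lower, and with the offsets 10 and 10. Their median log2 fold change was 0.15, and -0.15 with the offsets. Fcrlb, the Fc receptor-like gene nearest to Fcgr2b on its outer side, had -0.95 (SE 0.85; edgeR adjusted p = 0.328), and Dusp12, the next, 1.62 (SE 0.12; edgeR adjusted p = 8.61e-10).

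On the far side of Fcer1g, Adamts4 had -2.52 (SE 0.57; edgeR adjusted p = 0.000642). Nos1ap, with -2.34 (SE 0.26; edgeR adjusted p = 2.39e-07), and Adamts4 had the largest changes of the region.

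**Figure D5:**
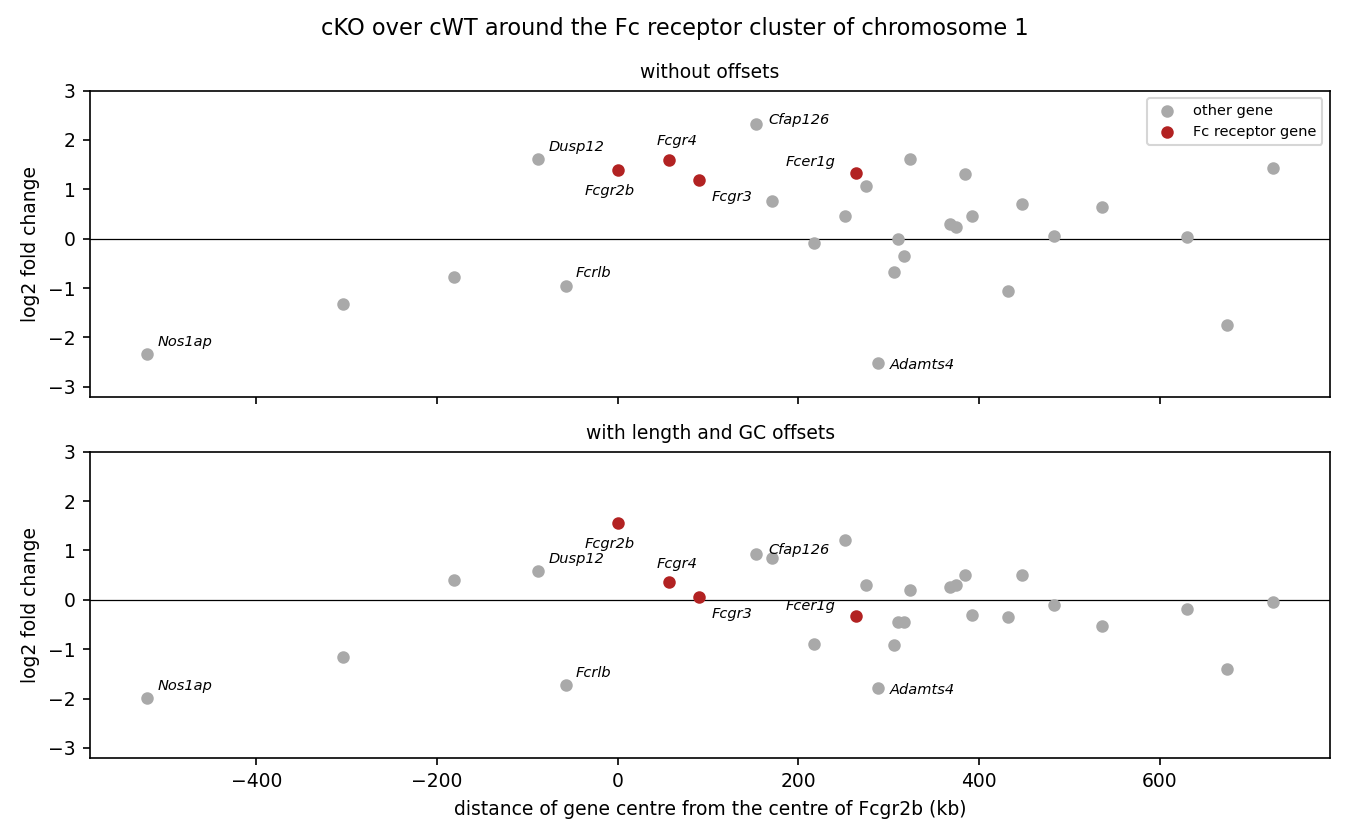
Log2 fold change, cKO over cWT, of the tested genes around the Fc receptor cluster against the distance of the centre of each gene from that of Fcgr2b in kilobases, without offsets above and with length and GC offsets below. Red points are the 4 Fc receptor genes of chromosome 1 and grey points the 26 neighbours. Neighbours lie on both sides of 0 in both panels, from -2.52 (Adamts4) to 2.32 without offsets (Cfap126, named after its values were seen).

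The genes whose profile over the 6 libraries was most like that of Fcer1g, by the root mean square difference of centred log2 CPM among 5493 genes, were Comtd1 (0.041), Fam195b (0.057) and 2210016F16Rik (0.063). Comtd1 had 73.5, 58.4 and 89.5 CPM in cKO, against 29.5, 28.1 and 27.4 CPM in cWT, with replicate 3 the highest of the cKO libraries as in Fcer1g. The genes most like Fcgr2b were Mrpl39 (0.034), Sft2d1 (0.038) and Ly6c2 (0.041). Their log2 fold changes were 1.40, 1.37 and 1.37, beside 1.40 for Fcgr2b.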

How the data were processed

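Microglial RNA was sequenced in 3 cKO and 3 cWT libraries, grouped by their titles. Estimated counts per gene symbol were deposited by the authors for each library, without scaling between libraries. They also deposited their own comparison, with a base mean (a scaled signal), log2 fold changes with standard errors, a Wald score, and p-values with adjusted p-values, per the file headers. The submitters' processing notes list STAR 2.7.9a, RSEM and DESeq2 and the builds GRCm38 and mm10, without role or order. No source used here gives the annotation, the strand setting or the way microglia were purified.

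Estimated counts were rounded and tested with edgeR 4.0.16 in R 4.3.3 (quasi-likelihood, two-sided, TMM, robust, genotype as the only term) after filterByExpr with a minimum count of 10. CPM carry the TMM factors. Adjusted p-values are Benjamini-Hochberg over all genes tested. Standard errors were derived from the test statistic. The test was tested on simulated data. Offsets per library came from natural splines (5 degrees of freedom each) of log2 CPM, relative to each gene's mean, on log2 length and GC content of a single annotated transcript per gene (GENCODE vM21, chosen by APPRIS class and then length). Alternatives were DESeq2 1.42.0, limma-voom (limma 3.58.1), other scalings and filters, a term for the replicate number, summed paralogs and the omission of each library.

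Within a genotype, libraries were further apart than counting noise allows (chi-square per degree of freedom 3.76 to 18.2), so none was taken for another library deposited again; this does not show that they came from separate animals. The estimated counts carry no molecular identifiers, and their depth (12068698 to 17482042 per library) gives the least precision for low genes.

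The 5 genes, the lists and the tests were chosen with earlier results of these data known. From each list the 2 most abundant genes and the 3 called genes without overlap and with the largest change are named. Of the neighbours of the chromosome 1 cluster, the 2 nearest on each side and the 2 with the largest change are named, and of the marker lists the defining markers. Where a gene outside this rule is named, the text says that it was picked with its values known. Some genes that the rule takes are left out of the text.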

Additional observations from a re-analysis of the deposited data

How the results depend on the processing

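The call of all 5 genes as higher held with DESeq2, limma-voom, 2 other scalings, 2 other filters, the replicate block and the omission of each library. Over the omissions, the log2 fold changes ran from 0.69 to 0.82 for Fcgr1, 1.12 to 1.26 for Fcgr3, 1.52 to 1.75 for Fcgr4, 1.34 to 1.48 for Fcgr2b and 1.18 to 1.49 for Fcer1g. With length and GC offsets 3 of the 5 were called higher, also with the replicate block added and with the transcript Fcgr2b-202. In those 3 fits Fcgr3 was at 0.06 each time (0.0599, 0.0614 and 0.0598), with edgeR adjusted p = 0.549, 0.351 and 0.549. Fcer1g was at -0.34, -0.36 and -0.34, with edgeR adjusted p = 0.0782, 0.0079 and 0.0788, so the replicate block made its lower value a call. The cause was not tested. Without the offsets, and with Fcgr2b and Fcgr3, or these and Fcgr4, summed, the values were 1.24 and 1.25.

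Scaling by total counts only moved the median of all genes to -0.42, beside -0.02, and 33.1% of the calls were then higher, against 49.4%. All 5 genes stayed higher, but 26 pathway genes were called higher and 88 lower. Vav1, not called in the fit reported, changed sign there (-0.39), without a filter (-0.037) and over the omissions (-0.094 to 0.079). With the offsets Syk (0.29), Src (0.0145, 0.0107 with the replicate block, 0.015 with Fcgr2b-202) and Tgfbr1 (0.12) changed sign in all 3 fits, and Ms4a2 (-0.070) with the replicate block. The ratio of Fcer1g to the activating receptors ran from -0.0135 to 0.304 on the log2 scale over the omissions.

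Replicate numbers were shared between the genotypes. Samples with the same number correlated at 0.099, 0.034 and 0.088, under the 0.1 set for a pairing. Each cKO sample nonetheless correlated best with the cWT sample of its own number. The replicate block gave 4883 genes higher and 5028 lower, and 5 of 5 Fc receptor genes higher. Added to the offsets, it also brought Lair1 (0.17), Pag1 (-0.17) and Vav1 (0.16) past the threshold, with edgeR adjusted p = 0.0113, 0.0279 and 0.0182. Depth limited Fcer1a and Ms4a2, at about 1 CPM.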

Other observations

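Some pathway genes kept the same direction with and without the length and GC offsets, and a few are given here. They were chosen after their values were seen, and those given with their levels all rose. Others fell in both fits, such as Ceacam1 (-0.97, and -1.03 with the offsets), Siglece (-0.58 and -1.15) and Fyb (-1.27 and -1.40). Ifngr2, the second chain of the interferon gamma receptor, had 200, 186 and 212 CPM in cKO, against 137, 128 and 138 CPM in cWT, with log2 fold changes of 0.57 without the offsets and 0.90 with them (edgeR adjusted p = 2.29e-05 and 6.21e-10). Cebpa and Cebpb, transcription factors of myeloid cells, rose by 0.48 and 0.87 on the log2 scale without the offsets and by 0.80 and 0.43 with them (edgeR adjusted p = 1.06e-08 and 1.84e-05 with the offsets). Spi1, which encodes PU.1, had 307, 297 and 425 CPM in cKO, against 255, 281 and 306 CPM in cWT. It was called higher, by 0.29 on the log2 scale (edgeR adjusted p = 0.0452), although the groups overlapped, and its value with the offsets was 0.09 (edgeR adjusted p = 0.341).

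Among the inhibitory receptors, Cd300a had 247, 233 and 295 CPM in cKO, against 133, 139 and 148 CPM in cWT, with log2 fold changes of 0.88 and, with the offsets, 1.55 (edgeR adjusted p = 8.83e-12). Pirb, an inhibitory receptor for MHC class I, had 60.4, 69.3 and 66.0 CPM in cKO, against 40.2, 40.8 and 40.1 CPM in cWT, with 0.69 and, with the offsets, 1.04 (edgeR adjusted p = 1.04e-10). Both were also chosen after their values were seen.

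Further along chromosome 1, 2728 kb beyond the span of the Fc receptor genes, Ifi202b had 329, 348 and 217 estimated counts in cKO, against 0, 0 and 0 in cWT, and was chosen after its values were seen. Its relation to the levels of the receptor genes on that chromosome was not tested.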
